A study of Mus musculus with 28 samples.

Results

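Transcripts of the epidermal growth factor (EGF) family ligands *Areg*, *Ereg*, *Hbegf*, *Tgfa*, *Btc* and *Nrg1* and of the ERBB receptors *Egfr*, *Erbb2*, *Erbb3* and *Erbb4* were followed in sorted stromal and luminal cells of the adult mouse mammary gland. The genes were chosen by name with earlier results of these data known. All 10 were found by their Ensembl identifiers among the 50600 genes counted. EGF family ligands are made as membrane precursors that ADAM proteases shed, and they act on ERBB receptor tyrosine kinases that signal as dimers. *Areg*, *Ereg*, *Hbegf*, *Tgfa* and *Btc* encode ligands of the EGF receptor, *Nrg1* encodes a ligand of ERBB3 and ERBB4, and ERBB2 has no known soluble ligand and pairs with the other receptors. In the developing gland, amphiregulin from hormone-sensing luminal cells is known to act on EGF receptor in the stroma during ductal growth.

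The cells came from 7 adult female *PdgfrαCre R26mTmG* mice on C57BL/6, aged 10 to 12 weeks, of which 4 were untreated and 3 had received 14-day slow-release pellets of 0.14 mg 17β-estradiol and 14 mg progesterone (E+P). All mice carried both alleles: cells that had ever expressed *Pdgfrα*-driven Cre, and their progeny, expressed membrane GFP, and all others tdTomato. The Cre is not inducible, so GFP marks lineage history and not present *Pdgfrα* expression. From each mouse, lineage-negative cells were sorted into GFP+ and tdTomato+ stromal (CD49f-EpCAM-) and GFP+ and tdTomato+ luminal (CD49f lo EpCAM+) subsets, which gave 28 bulk RNA-seq libraries with n = 4 untreated and n = 3 E+P in each subset.

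The libraries held 8623383 to 24583803 counted reads (median 15329083.5), and 3 reads, the limit that a count of 0 allows, corresponded to 0.122 to 0.348 CPM (read counts divided by the library's total and multiplied by 1000000). The luminal label fitted the markers, with summed luminal epithelial transcripts of 4754 to 8792 CPM in luminal libraries. GFP+ stromal libraries carried 35040 to 65895 CPM of fibroblast markers. The tdTomato+ stromal libraries carried 2169 to 7356 CPM of fibroblast markers beside 7500 to 10436 CPM of pericyte and smooth muscle markers and 2585 to 23003 CPM of skeletal muscle markers, so this gate was a mixture and is named here by its sort. In these bulk samples fewer cells of a type and less RNA per cell cannot be told apart. The marker sums above and the levels below are CPM scaled by trimmed mean of M-values (TMM). A difference was called at a Benjamini-Hochberg adjusted p under 0.01 over all genes tested with edgeR's quasi-likelihood test.

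*Areg*, *Ereg* and *Btc* lie together on chromosome 5 (GRCm38). *Ereg* (ENSMUSG00000029377) spans chr5:91074622-91093646 on the plus strand, 45953 bases before *Areg* (ENSMUSG00000029378) at chr5:91139599-91148432 on the same strand. *Btc* (ENSMUSG00000082361) lies at chr5:91357261-91402994 on the minus strand, 208829 bases past the end of *Areg*. The 250 bases before the *Areg* start (RefSeq, GRCm38.p6, chr5:91139349-91139598, plus strand) are printed here because the levels of *Areg* and its neighbour *Ereg* had opposite lineage patterns. The capitals mark the palindromic cyclic AMP response element, TGACGTCA, found 61 to 54 bases before the start.

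Areg: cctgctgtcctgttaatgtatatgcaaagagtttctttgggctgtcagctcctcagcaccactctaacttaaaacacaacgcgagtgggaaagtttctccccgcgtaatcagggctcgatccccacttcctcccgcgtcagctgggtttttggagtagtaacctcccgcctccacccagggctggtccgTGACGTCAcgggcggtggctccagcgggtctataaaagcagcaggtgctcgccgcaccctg

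Windows of the same length were at hand for 6 of the 10 genes (*Areg*, *Tgfa*, *Btc*, *Egfr*, *Erbb2* and *Erbb4*), and on either strand the element occurred in that of *Areg* alone and in 1.55% of 32851 promoters. A palindromic estrogen response element, GGTCA and TGACC with any 3 bases between, was in none of the 6 windows and in 0.0639% of all promoters. The motif matches are a description of sequence only.

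The first comparison set all luminal against all stromal libraries. *Areg*, *Tgfa* and *Btc* among the ligands and *Erbb2*, *Erbb3* and *Erbb4* among the receptors were higher in luminal cells, and *Ereg* and *Egfr* were higher in stroma. These are 8 of the 10 genes, in a comparison in which 63.5% of all 19569 genes tested were called (30.5% higher and 33% lower in luminal cells). The median log2 difference was 2.74 over the 10 genes and -0.02 over all genes. *Hbegf* and *Nrg1* were not called between the lineages as a whole.

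*Areg* (amphiregulin) was at 198 to 448 CPM in the 7 tdTomato+ luminal libraries (median 342) and at 14.6 to 143 CPM in GFP+ luminal libraries (median 26.5). It was at 0.0985 to 1.71 CPM in GFP+ stroma (median 0.487) and at 0 to 46.2 CPM in tdTomato+ stroma (median 0.735). The luminal and stromal ranges overlapped because of 1 tdTomato+ stromal library, and the fitted difference was 6.73 on the log2 scale (SE 0.59, adjusted p = 8.0e-10). The 4 untreated tdTomato+ stromal libraries, replicates 1 to 4, had 3.81, 12.4, 46.2 and 0 CPM of *Areg* beside 93.4, 363, 589 and 21.9 CPM of summed luminal epithelial markers, in the same order. The part of those luminal transcripts in the stromal *Areg* values was not tested.

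*Ereg* (epiregulin) had the opposite pattern to its neighbour. GFP+ stromal libraries had 1.06 to 15.8 CPM (median 5.71), whereas all luminal libraries were at or under 0.417 CPM and 7 of 14 had no read. All but 1 of the tdTomato+ stromal libraries were at or under 0.306 CPM, and the exception had 2.32 CPM. The fitted luminal minus stromal difference was -4.02 (SE 0.81, adjusted p = 8.9e-05), which depends on the prior count since the luminal gene total was 26 reads. Without E+P mouse 3 the adjusted p was 1, a fit in which edgeR returned a negative F for *Ereg*.

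*Tgfa* (transforming growth factor alpha, chr6:86195223-86275719) was at 0.909 to 1.71 CPM in GFP+ stroma and 1.81 to 12.3 CPM in tdTomato+ stroma, against 11.6 to 22 CPM in GFP+ and 19.6 to 42 CPM in tdTomato+ luminal cells. Only the 2 highest tdTomato+ stromal libraries reached into the luminal range, and the difference was 3.17 (SE 0.17, adjusted p = 6.0e-15). *Btc* (betacellulin) was at 0.153 to 4 CPM in stroma and 4.28 to 15.5 CPM in luminal cells, without overlap (log2 difference 2.70, SE 0.21, adjusted p = 1.1e-11). Such separation in the luminal direction held for 4 of the 10 genes (*Btc*, *Erbb2*, *Erbb3* and *Erbb4*) and for 5.91% of all genes tested.

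*Hbegf* (heparin-binding EGF-like growth factor, a ligand of EGF receptor and ERBB4) was measured in every library. It was at 17 to 69.3 CPM in GFP+ luminal cells and at 12 to 24.9 CPM in tdTomato+ luminal cells, with 5.6 to 22.4 CPM in GFP+ stroma and 13.1 to 33.5 CPM in tdTomato+ stroma. The subsets overlapped, and the lineage difference was 0.43 (SE 0.20, adjusted p = 0.056). Within GFP+ cells the luminal libraries were higher by 1.27 (SE 0.28, adjusted p = 3.9e-04), but within tdTomato+ cells the difference was -0.42 (adjusted p = 0.189).

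*Nrg1* (neuregulin 1, chr8:31814551-32884029) was at 2.95 to 35.6 CPM in GFP+ stroma and 0.0664 to 3.58 CPM in tdTomato+ stroma. Luminal levels lay between 2.38 and 11.8 CPM in GFP+ and between 0.401 and 3.83 CPM in tdTomato+ cells. The lineages overlapped widely, and the difference was -0.48 (SE 0.34, adjusted p = 0.216). Within GFP+ cells luminal *Nrg1* was lower by 1.41 on the log2 scale (SE 0.46, adjusted p = 0.0098), but luminal *Nrg1* was the higher in 3 of 7 mice, all untreated. The call was lost with the mouse as a block (adjusted p = 0.0205), with library size in place of TMM (0.0475), without the low-count filter (0.0368) and without untreated mouse 3 or 4 or any E+P mouse (0.0223 to 0.0427).

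**Figure D1:**
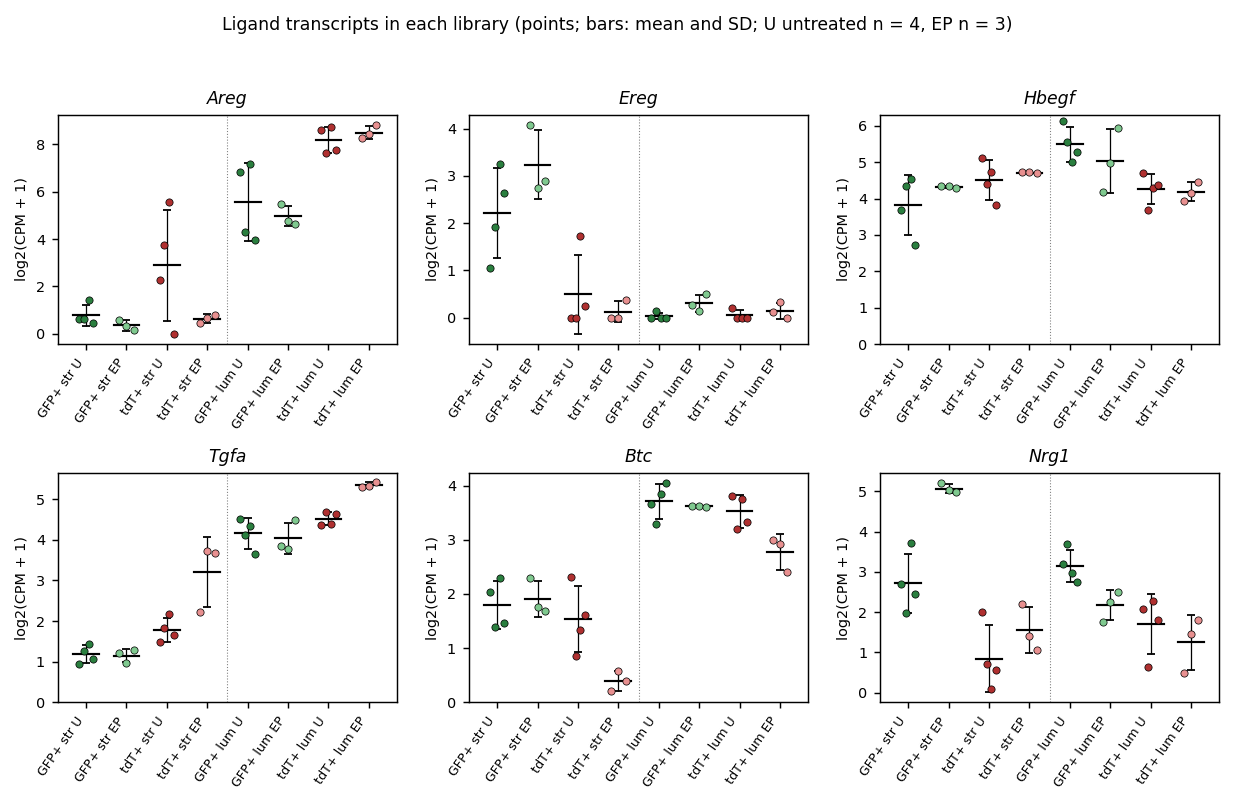
The vertical axes give log2(TMM-scaled CPM + 1) of the 6 ligands, by subset (str, stromal, lum, luminal, tdT+, tdTomato+) and treatment (U, untreated, EP, E+P), with points for libraries and bars for the group mean and SD. *Areg* was highest in tdTomato+ luminal cells (198 to 448 CPM), whereas *Ereg* was above 3 CPM in GFP+ stroma alone.

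Among the receptors, *Egfr* (EGF receptor, chr11:16752203-16918158) was the stromal gene. It was at 1104 to 1788 CPM in GFP+ stroma (median 1275) and at 123 to 272 CPM in tdTomato+ stroma (median 152). GFP+ luminal libraries had 94.4 to 171 CPM and tdTomato+ luminal libraries 7.99 to 54.1 CPM. The ranges of tdTomato+ stroma and GFP+ luminal cells overlapped, and the luminal minus stromal difference was -3.36 (SE 0.18, adjusted p = 2.3e-14).

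*Erbb3* (chr10:128567523-128589652), a receptor for neuregulins with little kinase activity of its own, was at 325 to 584 CPM in luminal cells and 0.487 to 26.8 CPM in stroma. The lineages did not overlap, and the difference was 6.81 (SE 0.31, adjusted p = 6.0e-15). In untreated tdTomato+ stroma its 7.9, 16.4, 26.8 and 3.01 CPM followed the order of the luminal epithelial marker sums, as *Areg* did. *Erbb4* (chr1:68032186-69108059), the other neuregulin receptor, was at 5.71 to 124 CPM in luminal cells. In stroma it did not exceed 1.2 CPM, and 6 of 14 libraries had no read, so its fitted difference of 8.25 (SE 0.45, adjusted p = 3.0e-13) depends on the prior count.

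*Erbb2* (chr11:98412470-98437716) was at 83.7 to 268 CPM in luminal cells and 13.3 to 25.5 CPM in stroma. Every luminal library exceeded every stromal library, with a difference of 2.78 (SE 0.08, adjusted p = 2.7e-20), or 6.87-fold. An antisense gene, *Mien1*, overlaps its exons, and since the strand used in counting was not stated, reads of the pair could be mixed. *Mien1* was counted at 4068 reads in all, against 4205 stromal and 36519 luminal reads for *Erbb2*.

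**Figure D2:**
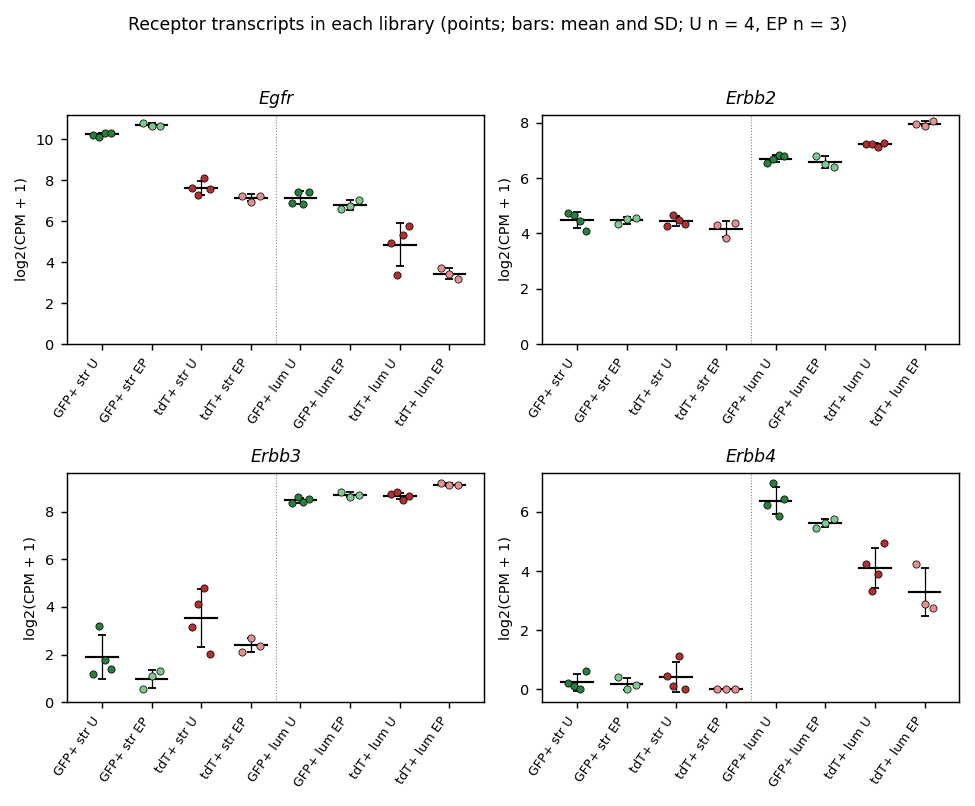
The vertical axes give log2(TMM-scaled CPM + 1) of the 4 receptors, by subset (str, stromal, lum, luminal, tdT+, tdTomato+) and treatment (U, untreated, EP, E+P), with points for libraries and bars for the group mean and SD. *Egfr* was highest in GFP+ stroma (1104 to 1788 CPM) and lowest in tdTomato+ luminal cells (7.99 to 54.1 CPM), and *Erbb4* was near 0 in stroma.

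The lineage comparison was also made within each reporter class. All 10 genes differed between GFP+ luminal and GFP+ stromal cells (7 higher in luminal cells and 3 lower, where 52.5% of all genes were called, 24.8% higher and 27.7% lower), the *Nrg1* call among them being lost under 8 alternatives. Between tdTomato+ luminal and tdTomato+ stromal cells 7 differed (6 higher and 1 lower, background 59.3%, with 27.4% higher and 31.9% lower). In the latter, *Ereg*, *Hbegf* and *Nrg1* were not called, with log2 differences of -1.76, -0.42 and 0.45. *Areg* was higher in luminal cells by 6.65 (SE 0.88) among GFP+ cells and by 6.81 (SE 0.81) among tdTomato+ cells.

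To compare levels between genes, CPM was divided by exon length in kilobases. The length covers the exons of all annotated transcripts, 10.351 kb for *Nrg1* (18 transcripts) and 1.215 kb for *Areg* (1 transcript). The levels per length and the shares depend on this choice. In untreated GFP+ stroma *Egfr* had 106 CPM per kb, against 4.16 for *Erbb2*, 3.07 for *Hbegf* and 1.06 for *Ereg*. *Egfr* made up 95.7% ± 1.25 (SD, n = 4) of the summed receptor level there and 74.0% ± 6.9 in untreated tdTomato+ stroma. The stromal receptor pool was thus mostly *Egfr* transcript in both gates.

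In untreated luminal cells *Erbb3* was the leading receptor per length, with 60.0% ± 1.28 of the receptor sum in GFP+ and 67.4% ± 2.76 in tdTomato+ cells. *Egfr* accounted for 12.7% ± 1.69 in GFP+ luminal cells and 2.92% ± 1.66 in tdTomato+ luminal cells, and *Erbb4* for 6.93% ± 1.71 in the former. Of the ligands, *Areg* had 253 CPM per kb in untreated tdTomato+ luminal cells, 95.9% ± 1.15 of the ligand sum. In GFP+ luminal cells the share of *Areg* varied more between mice, at 67.1% ± 21.8. In untreated GFP+ stroma *Hbegf* was the largest ligand share (49.3% ± 15.2), and the ligand sum was 6.16 CPM per kb against 263 in tdTomato+ luminal cells.

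**Figure D3:**
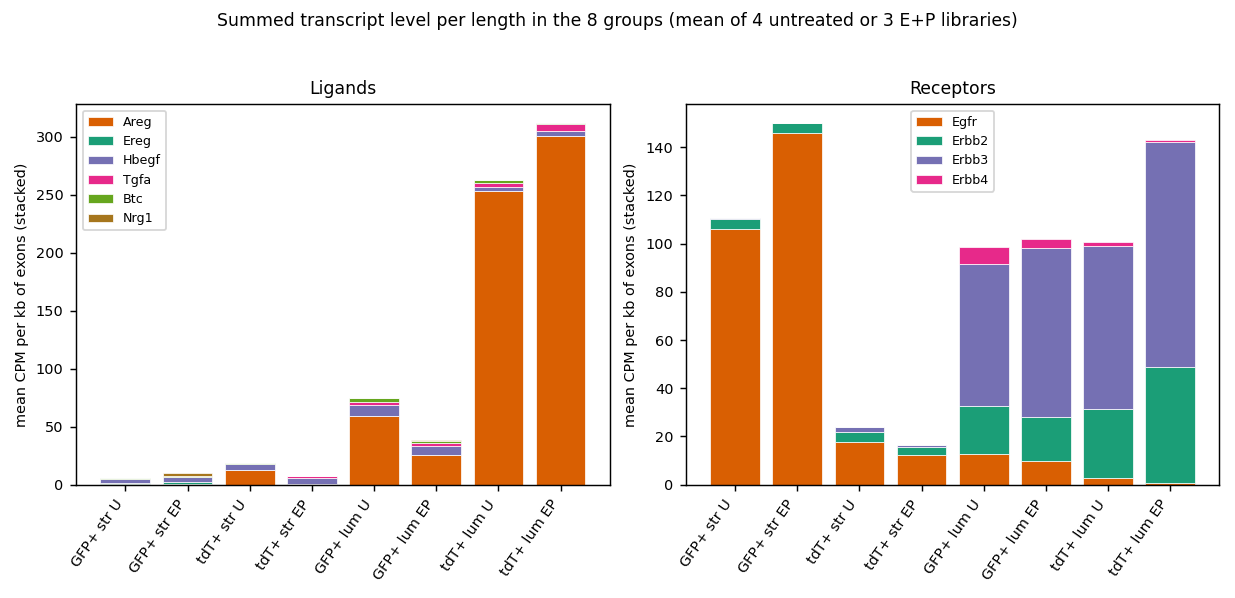
Stacked bars give the mean TMM-scaled CPM per kilobase of exon for the 6 ligands (left) and the 4 receptors (right) in each of the 8 groups, named as in the plots by library. *Egfr* led the receptors in stroma (106 CPM per kb in untreated GFP+ cells) and *Erbb3* in luminal cells, and *Areg* was the largest ligand value in tdTomato+ luminal cells (253 untreated, 301 after E+P).

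GFP+ and tdTomato+ stroma were then compared over all 7 mice. *Egfr*, *Nrg1*, *Ereg* and *Btc* were higher in GFP+ stroma, and *Tgfa* and *Erbb3* were higher in tdTomato+ stroma. These are 6 of 9 genes tested, in a comparison that called 42% of 17783 genes (20.6% higher and 21.3% lower in GFP+ stroma), and *Erbb4* did not pass the filter on low counts. The gates differed in composition, as the fibroblast, pericyte and muscle marker sums above show, and the part of composition in these differences was not tested.

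*Egfr* was 8.28-fold higher in GFP+ stroma (log2 difference 3.05, SE 0.12, adjusted p = 4.5e-12) and higher in 7 of 7 mice. Its lowest GFP+ stromal library, at 1104 CPM, was well above the highest tdTomato+ stromal library, at 272 CPM. *Nrg1* was higher by 3.27 (SE 0.53, adjusted p = 1.6e-04), with 2 tdTomato+ libraries, at 3.04 and 3.58 CPM, within the range of GFP+ stroma. *Ereg* was higher by 4.59 (SE 0.94, adjusted p = 0.00102), although without E+P mouse 1 its adjusted p was 0.0109.

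*Tgfa* was lower in GFP+ stroma by 1.95 on the log2 scale (SE 0.32, adjusted p = 6.3e-05), and its ranges of 0.909 to 1.71 and 1.81 to 12.3 CPM did not overlap. *Egfr* and *Tgfa* were the 2 genes with no overlap between the stromal gates, a separation seen in 13.9% of all genes in the direction of *Egfr* and 12.6% in that of *Tgfa*. *Btc* was higher by 1.70 (SE 0.42, adjusted p = 0.00253) in GFP+ stroma and higher in 5 of 7 mice, and its call was lost without untreated mouse 3 or E+P mouse 1 or 3. Mean *Btc* in GFP+ and tdTomato+ stroma was 2.6 and 2.09 CPM in untreated mice, and 2.83 and 0.318 CPM after E+P. The difference of the E+P effects on *Btc* was not called (2.80, SE 0.84, adjusted p = 0.229). *Erbb3* was lower by 2.02 (SE 0.51, adjusted p = 0.00397), and its call was lost without untreated mouse 3 or any of the E+P mice.

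When the 2 tdTomato+ stromal libraries with the most luminal markers, those of untreated mice 2 and 3, were left out, 4 of the 6 calls held. *Btc* (1.42, adjusted p = 0.0106) and *Erbb3* (-1.39, adjusted p = 0.0214) then missed the threshold. These libraries also held the most *Erbb3* and *Areg* in that gate, so a smaller *Erbb3* difference followed from their choice. With all libraries *Areg* (-2.66, SE 0.99, adjusted p = 0.0382), *Hbegf* (-0.54, SE 0.25, adjusted p = 0.0867) and *Erbb2* (0.17, SE 0.14, adjusted p = 0.343) were not called.

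GFP+ and tdTomato+ luminal cells differed in 8 of the 9 genes tested, against 34.7% of 16538 genes (15.7% higher and 19% lower in GFP+ cells). *Egfr*, *Erbb4*, *Hbegf* and *Nrg1* were higher in GFP+ luminal cells, and *Areg*, *Erbb2*, *Tgfa* and *Erbb3* were higher in tdTomato+ luminal cells. Markers of luminal subtypes moved with the reporter. Hormone-sensing markers summed to 155 to 1748 CPM in GFP+ and 1996 to 5214 CPM in tdTomato+ libraries, and luminal progenitor markers to 1011 to 2277 CPM and 95.1 to 663 CPM. Their part in the differences was not tested.

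*Egfr* was 6.87-fold higher in GFP+ luminal cells (log2 difference 2.78, SE 0.31, adjusted p = 2.3e-05), and *Erbb4* was higher by 2.25 (SE 0.33, adjusted p = 1.4e-04). Neither gene overlapped between the gates, with the lowest GFP+ libraries at 94.4 and 43.2 CPM and the highest tdTomato+ libraries at 54.1 and 30.1 CPM. *Areg* was 7.16-fold lower in GFP+ luminal cells (-2.84, SE 0.50, adjusted p = 5.4e-04) and *Erbb2* was lower by 0.98 (SE 0.08, adjusted p = 9.5e-07), again with no overlap. No overlap was seen in 6.13% of all genes in the first direction and 5.87% in the second.

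The remaining calls were smaller or less stable. *Hbegf* was higher in GFP+ luminal cells by 1.14 (SE 0.28, adjusted p = 0.00444) and higher in 7 of 7 mice, and *Nrg1* by 1.40 (SE 0.40, adjusted p = 0.00988). *Tgfa* was lower by 0.87 (SE 0.15, adjusted p = 2.8e-04) in GFP+ luminal cells and *Erbb3* by 0.33 (SE 0.07, adjusted p = 0.00135). Mean *Tgfa* in GFP+ and tdTomato+ luminal cells was 17.3 and 22.2 CPM in untreated mice, and 15.8 and 39.9 CPM after E+P. The *Nrg1* call was lost when any single mouse was left out (adjusted p = 0.0124 to 0.0402) and with the mouse as a block (0.0137). *Hbegf* lost its call in 4 of these 7 fits and *Erbb3* without E+P mouse 2 or 3. *Btc* was not called (0.54, SE 0.17, adjusted p = 0.0153).

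*Areg* varied among the untreated GFP+ luminal libraries, which had 112, 18.6, 143 and 14.6 CPM beside 1120, 415, 1748 and 274 CPM of hormone-sensing markers, in the same order. The orders differed in the untreated tdTomato+ luminal libraries. There *Areg* had 385, 198, 428 and 219 CPM beside 3912, 5214, 4298 and 3528 CPM of these markers. The part of these markers in the *Areg* values was not tested. In these tdTomato+ libraries *Erbb4* had 17.9, 9.01, 14.1 and 30.1 CPM beside 491, 170, 402 and 663 CPM of progenitor markers, in the same order.

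**Figure D4:**
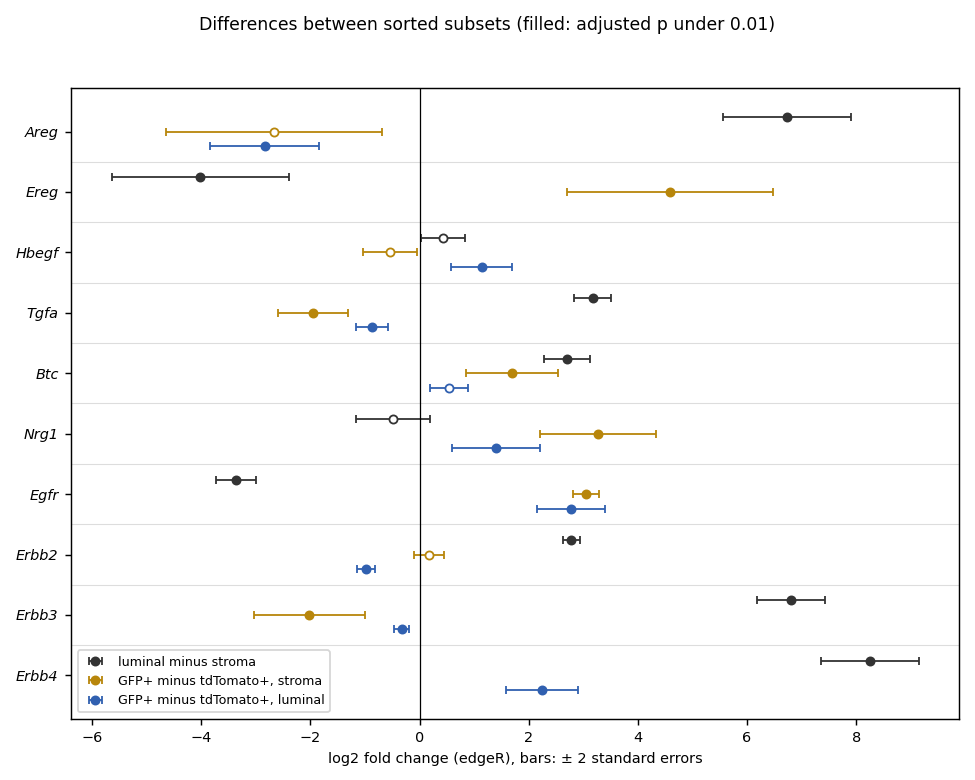
Log2 differences between lineages (luminal minus stromal) and between reporter classes (GFP+ minus tdTomato+) for the 10 genes from edgeR on the horizontal axis, with bars of 2 SE and filled points for adjusted p under 0.01. *Egfr* was higher in GFP+ cells of both lineages (3.05 in stroma and 2.78 in luminal cells) and *Tgfa* was lower in both (-1.95 and -0.87).

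The effect of E+P was tested in each subset, with 3 treated and 4 untreated mice. In tdTomato+ luminal cells *Erbb2*, *Erbb3* and *Tgfa* rose, which is 3 of 9 genes tested where 14.1% of all genes were called and 7.63% rose. With library size in place of TMM the calls were 1 up and 2 down: *Erbb2* stayed called, *Tgfa* (adjusted p = 0.0312) and *Erbb3* (0.0473) lost their calls, and *Egfr* (-1.95, adjusted p = 0.00663) and *Btc* (-1.05, adjusted p = 0.00526) were called lower. *Erbb2* was at 149, 150, 139 and 153 CPM in untreated mice and 246, 235 and 268 CPM after E+P. The groups did not overlap, and *Erbb2* rose 1.72-fold (log2 change 0.78, SE 0.11, adjusted p = 1.8e-04) and was called under all alternatives.

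In the same gate *Erbb3* was at 421, 446, 363 and 402 CPM without treatment and 584, 553 and 548 CPM with E+P. All treated libraries were higher, and the change was 1.4-fold (log2 change 0.49, SE 0.10, adjusted p = 0.00272). *Tgfa* was at 19.6, 24.9, 20.1 and 24.1 CPM and then 38.6, 39.1 and 42 CPM. Here too the groups were separate, with a 1.83-fold change (log2 change 0.87, SE 0.21, adjusted p = 0.00667). The *Erbb3* call was lost without untreated mouse 3 or 4 or any E+P mouse (adjusted p = 0.0102 to 0.0175), and that of *Tgfa* without untreated mouse 1, 2 or 3 or any E+P mouse (0.0114 to 0.0248).

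*Areg* did not separate by treatment in tdTomato+ luminal cells, with 385, 198, 428 and 219 CPM in untreated and 306, 342 and 448 CPM in E+P mice (log2 change 0.27, SE 0.65, adjusted p = 0.79). *Egfr* was at 29, 9.37, 39 and 54.1 CPM in untreated mice and 12, 9.62 and 7.99 CPM after E+P. Its groups overlapped through untreated mouse 2, whose library also had the lowest progenitor marker sum of the untreated mice, and the change was not called (-1.71, SE 0.44, adjusted p = 0.0138). It was called by DESeq2 (-1.70, adjusted p = 1.7e-04) and without untreated mouse 2 (-2.02, adjusted p = 2.7e-04). *Btc* was at 13.1, 8.16, 12.5 and 9.08 CPM and then 6.98, 6.63 and 4.28 CPM, lower in every treated library but not called (-0.82, SE 0.24, adjusted p = 0.0211), although DESeq2 called it (0.00602), as did the fit without untreated mouse 2 (0.00831).

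Separation of treated from untreated tdTomato+ luminal libraries, seen upward for *Tgfa*, *Erbb2* and *Erbb3* and downward for *Btc*, occurred in 17.1% and 18.8% of all genes. Marker sums also moved in these libraries. Progenitor markers were at 170 to 663 CPM untreated and 95.1 to 161 CPM after E+P, hormone-sensing markers at 3528 to 5214 and 1996 to 3037 CPM, and basal markers at 7.61 to 18.3 and 35.4 to 62.5 CPM. Their part in the E+P differences was not tested.

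In GFP+ luminal cells none of 9 genes was called, with 5.96% of all genes called. *Erbb3* alone had an unadjusted p under 0.05 (log2 change 0.25, SE 0.10, adjusted p = 0.112), a rule whose share over all genes was not counted. DESeq2 and limma-voom each called 0 of the 9, and DESeq2 called 2035 over all genes. *Erbb2* was at 91.7, 101, 112 and 109 CPM in untreated and 111, 89.4 and 83.7 CPM in E+P mice, overlapping groups. The E+P effect on *Erbb2* was smaller in GFP+ than in tdTomato+ luminal cells (GFP+ minus tdTomato+ difference of log2 changes -0.91, SE 0.15, adjusted p = 0.00328), the 1 of 9 genes called for this difference (background 2.27%). That call was lost with library size in place of TMM and when untreated mouse 3 or 4 or E+P mouse 2 or 3 was left out (adjusted p up to 0.0423).

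*Erbb4* in GFP+ luminal cells was at 74.5, 124, 57 and 86 CPM untreated and 43.2, 48.9 and 52.7 CPM after E+P. *Nrg1* was at 8.11, 11.8, 6.8 and 5.66 CPM and then 2.38, 3.77 and 4.62 CPM. Both were lower in every treated library, which held for 13.3% of all genes, and neither was called (-0.82, SE 0.44, adjusted p = 0.239 and -1.16, SE 0.55, adjusted p = 0.178). *Areg* was at 43.1, 26.5 and 24.2 CPM after E+P, within the untreated range (-1.21, SE 0.68, adjusted p = 0.261). Without the 2 untreated libraries with the most hormone-sensing markers, which also held the most *Areg*, its difference was 0.91 (adjusted p = 0.194). Progenitor markers in this gate were at 1406 to 2277 CPM untreated and 1011 to 1194 CPM after E+P, and basal markers at 41.6 to 85.6 and 117 to 132 CPM, each without overlap. Luminal epithelial markers, at 6107 to 8313 and 4754 to 6095 CPM, and fibroblast markers, at 38.7 to 117 and 23 to 26.7 CPM, were also separate. Their part in the *Erbb4* and *Nrg1* values was not tested.

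In GFP+ stroma no gene of 9 was called after E+P, where 0.231% of all genes were. *Nrg1*, *Egfr* and *Erbb3* had an unadjusted p under 0.05, a rule whose share over all genes was not counted. DESeq2 called 0 of the 9 and limma-voom called 1, which was *Nrg1*. Over all genes they called 192 and 100. *Nrg1* was at 5.45, 2.95, 12.2 and 4.5 CPM in untreated and 35.6, 31.6 and 30.3 CPM in E+P mice. Every treated library was well above every untreated one, and the log2 difference was 2.36 (SE 0.66, unadjusted p = 0.00341, adjusted p = 0.182). Its adjusted p was 0.0014 with limma-voom, 1.1e-11 without the low-count filter, and up to 0.606 with 1 mouse left out.

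*Egfr* was at 1176, 1104, 1275 and 1253 CPM in untreated GFP+ stroma and 1788, 1589 and 1599 CPM after E+P. The groups did not overlap, and the difference of 0.47 (SE 0.16, adjusted p = 0.274) was not called. Upward separation, seen for *Nrg1* and *Egfr*, occurred in 6.91% of all genes. In this gate luminal epithelial markers were at 20.7 to 96.9 CPM untreated and 4.83 to 6.33 CPM after E+P, and progenitor markers at 37.6 to 67.2 and 12.1 to 27.4 CPM. Endothelial markers were at 23.1 to 48 and 48.6 to 58.9 CPM, and the part of these markers in the differences, that of *Erbb3* (-1.68, SE 0.76, adjusted p = 0.596) included, was not tested. Per length, *Nrg1* was 9.86% ± 3.41 (SD, n = 4) of the ligand sum in untreated GFP+ stroma and 30.6% ± 3.21 (n = 3) after E+P. *Ereg* was at 1.06, 2.79, 8.48 and 5.23 CPM and then 15.8, 5.71 and 6.45 CPM, overlapping groups (1.08, SE 1.01, adjusted p = 0.946).

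In tdTomato+ stroma none of 9 genes was called after E+P, with 0.124% of all genes called. The unadjusted p was under 0.05 for 5 of the genes, and the share of all genes under that rule was not counted. DESeq2 called 3 of these genes and limma-voom 0, where over all genes they called 384 and 8. *Tgfa* was at 1.81, 2.53, 3.52 and 2.14 CPM in untreated and 3.68, 12.3 and 11.8 CPM in E+P mice, just separate (1.88, SE 0.43, adjusted p = 0.0498). *Btc* was at 4, 0.813, 1.53 and 2.04 CPM and then 0.153, 0.495 and 0.306 CPM (-2.68, SE 0.65, adjusted p = 0.0606), and its treated values were near the limit of 3 reads. *Egfr* was lower in every treated library as well, at 151, 123 and 151 CPM against 152 to 272 CPM (-0.51, SE 0.16, adjusted p = 0.127). Separation occurred in 5.18% of all genes upward and 5.48% downward. Endothelial markers in these libraries were at 86.7, 69.9, 27.4 and 82.2 CPM untreated and 88.1, 248 and 210 CPM after E+P. Their order was that of *Tgfa* in the treated mice and the reverse of it in the untreated mice. Basal markers were at 4.25 to 17.1 CPM untreated and 19.3 to 35.5 CPM after E+P. Fibroblast markers were at 5725, 2818, 7356 and 3208 CPM untreated and 2751, 2169 and 2703 CPM after E+P, without overlap. Untreated *Egfr*, at 194, 152, 272 and 188 CPM, had the same order as the fibroblast markers. The part of these markers in the differences was not tested.

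*Areg* and *Erbb3* had large but uncalled differences in tdTomato+ stroma, -4.78 (SE 1.39, adjusted p = 0.122) and -1.64 (SE 0.70, adjusted p = 0.274). Luminal epithelial marker sums there were 21.9 to 589 CPM untreated and 3.98 to 46.7 CPM after E+P. The part of these transcripts in both differences was not tested. For the difference of the E+P effect between the stromal gates, 0 of 9 genes were called (background 0.045%). There *Tgfa*, *Btc* and *Egfr* had an unadjusted p under 0.05, and the share of all genes under that rule was not counted. DESeq2 called 1 of the 9 and limma-voom 0, where over all genes they called 111 and 4. The *Egfr* difference was 0.98 (SE 0.22, adjusted p = 0.0866).

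**Figure D5:**
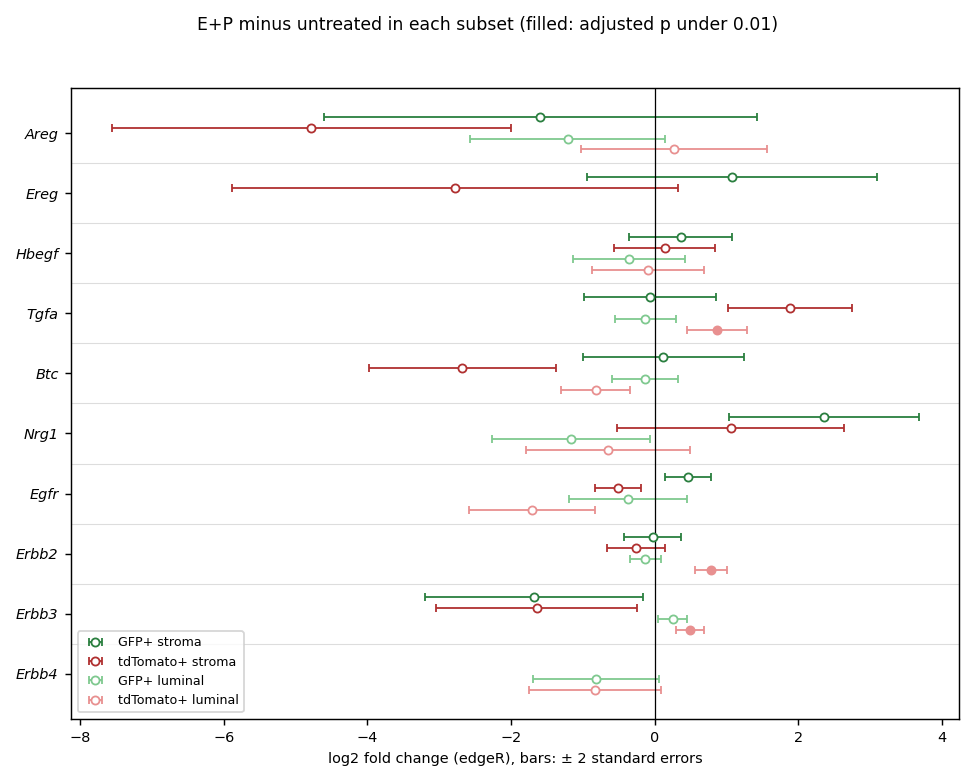
Log2 differences between E+P and untreated mice for the 10 genes in the 4 subsets from edgeR, with bars of 2 SE and filled points for adjusted p under 0.01. Filled points are *Tgfa* (0.87), *Erbb2* (0.78) and *Erbb3* (0.49) in tdTomato+ luminal cells, and the *Nrg1* difference in GFP+ stroma (2.36) had an SE of 0.66.

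Other genes of the pathway were read from a list of 47: further ligands, shedding proteases and their partners, adaptors, inhibitors and genes induced by ERK signalling. Between the lineages 13 of 46 tested were higher in luminal cells and 21 lower, where 30.5% of all genes were higher and 33% lower. The lower genes held 8 of 12 ERBB inhibitors and 4 of 8 shedding proteases and partners. Higher were the ligands *Epgn* (epigen, 6.80, SE 0.52, adjusted p = 5.5e-11) and *Nrg4* (neuregulin 4, 5.71, SE 0.99, adjusted p = 4.7e-05) and the cyclin gene *Ccnd1* (3.75, SE 0.25, adjusted p = 5.1e-12). Lower were the metalloproteases *Adam19* (-9.12, SE 0.26, adjusted p = 9.8e-20) and *Adam12* (-7.50, SE 0.40, adjusted p = 7.4e-14) and the signalling inhibitor *Spry4* (-3.67, SE 0.18, adjusted p = 3.0e-15).

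*Adam17*, which encodes the main sheddase of amphiregulin, was at 148 ± 11.2 CPM (SD, n = 7) in GFP+ stroma, 41.3 ± 9.85 in tdTomato+ stroma, 54.9 ± 5.54 in GFP+ luminal and 54.0 ± 5.16 in tdTomato+ luminal cells. *Adam10*, which encodes a sheddase of betacellulin, was at 633 ± 113 CPM in tdTomato+ and 168 ± 88.2 CPM in GFP+ luminal cells. Between GFP+ and tdTomato+ stroma 12 of 44 genes tested were higher and 15 lower, beside 20.6% and 21.3% of all genes. *Adam12* (3.34, SE 0.26, adjusted p = 1.7e-07), *Adam19* (2.18, SE 0.13, adjusted p = 4.3e-10) and *Adam17* (1.83, SE 0.14, adjusted p = 5.3e-09) led the higher genes. The receptor tyrosine kinase gene *Epha2* (-6.03, SE 0.20, adjusted p = 6.1e-13), *Ccnd1* (-3.61, SE 0.41, adjusted p = 6.0e-06) and *Rhbdf2*, a partner of ADAM17 (-2.67, SE 0.29, adjusted p = 2.5e-06), led the lower ones.

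Between GFP+ and tdTomato+ luminal cells 17 of 44 were higher and 11 lower, beside 15.7% and 19% of all genes. *Nrg2*, another neuregulin (2.52, SE 0.60, adjusted p = 0.00374), *Epha4* (2.51, SE 0.30, adjusted p = 3.2e-05) and *Lrig3* (2.29, SE 0.18, adjusted p = 9.5e-07) were the largest of the former. *Adam10* (-2.03, SE 0.24, adjusted p = 2.9e-05), the phosphatase gene *Dusp4* (-1.81, SE 0.26, adjusted p = 1.4e-04) and the transcription factor gene *Etv4* (-1.54, SE 0.26, adjusted p = 2.7e-04) were the largest of the latter.

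After E+P the list had no called gene of 44 in either stromal gate, beside 0.231% of all genes in GFP+ and 0.124% in tdTomato+ stroma. In GFP+ luminal cells 1 of 44 was called, beside 5.96% of all genes. It was the ERBB inhibitor gene *Lrig1*, which fell by 0.85 on the log2 scale (SE 0.19, adjusted p = 0.00838). In tdTomato+ luminal cells 6 of 44 genes rose and 5 fell, where 7.63% of all genes rose and 6.44% fell. *Epgn* went from 5.97 ± 2.01 CPM (SD, n = 4) to 26.3 ± 3.29 CPM (n = 3), a change of 2.18 (SE 0.36, adjusted p = 7.5e-04). The inhibitor genes *Spry1* (1.19, SE 0.22, adjusted p = 0.00149) and *Cblb* (1.03, SE 0.20, adjusted p = 0.00247) rose, whereas *Lrig1* (-0.87, SE 0.19, adjusted p = 0.00389), *Spred1* (-0.84, SE 0.15, adjusted p = 0.00105) and the adaptor gene *Gab1* (-0.75, SE 0.18, adjusted p = 0.00703) fell.

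The genes most like each member were found by Pearson correlation of log2 CPM over the 28 libraries, which share mice, sorts and lineage. The closest were *Arhgap40* for *Areg* (0.974), *Dab2* for *Egfr* (0.981), *Tspan14* for *Erbb2* (0.975) and *Trp53bp2* for *Erbb4* (0.975). *Erbb3* was at 0.989 with *Lsr*, *Ap1m2* and *Spint1*. The remaining ligands were closest to *Serpinb2* for *Ereg* (0.944), *Itgb4* for *Tgfa* (0.959), *Esyt3* for *Btc* (0.938), *Sdc3* for *Hbegf* (0.823) and *Cxcl16* for *Nrg1* (0.806). *Hbegf* and *Nrg1* thus had the least close neighbours in expression.

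Within the 14 stromal libraries, which fall into GFP+ and tdTomato+ gates, *Egfr* was most like *Rnase4* (0.996) and *Nrg1* most like *Ifi27l2a* (0.929), and *Ereg* and *Egfr* had a correlation of 0.91. Within the 14 luminal libraries *Egfr* and *Erbb4* had a correlation of 0.95, whereas *Egfr* and *Erbb2* had -0.90 and *Areg* and *Erbb4* -0.82. These values include the difference between the gates and are descriptive.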

How the data were processed

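The deposited values were raw read counts per gene, made by the authors from stranded total-RNA libraries (2 ng RNA, SMARTer pico kit, paired-end 75-base reads) aligned with STAR 2.5.2a to GRCm38.p5. The paper reports RNA of widely varying quality and a fragmentation time changed for RNA of lower quality. RNA quality by library was not used here, and its part in the differences was not tested. The GENCODE release and the strand used in counting are not given in the sources used here. Symbols, positions and exon lengths came from GENCODE M21. Libraries were grouped by their labels. The E+P pellet details come from the methods, where they are given for wild-type mice.

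Counts were analysed with edgeR 4.0.16 in R 4.3.3 (TMM, filterByExpr, robust quasi-likelihood fits) in the 14 stromal (17783 genes kept), 14 luminal (16538) or all 28 libraries (19569), with one group term. Alternatives were DESeq2 1.42.0, limma 3.58.1 (voom), other scaling, no low-count filter, only the groups compared, a threshold of 0.05, a block for mouse or for replicate number, and each mouse left out. The 4 subsets of a number are from 1 mouse, by the labels. Deviations from group means of the same mouse's gates correlated at a mean of 0.05 in stroma and 0.157 in luminal cells. Scripts were tested on simulated data.

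All 10 members are named, with up to 3 called pathway genes per direction by largest change and the 3 genes most like each member, of which the closest are printed. Members and lists were chosen with earlier results of these data known. Mice are the replicates, and the limit of 3 reads covers counting error only.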

Additional observations from a re-analysis of the deposited data

Results flagged for a closer look

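In untreated GFP+ stroma *Areg* was at 1.71 CPM in mouse 3, and the other 3 libraries were at 0.367 to 0.543 CPM. *Erbb3* in the same gate was at 8.3 CPM in mouse 2, with 1.29 to 2.38 CPM in the others. That library also had the highest luminal epithelial marker sum of the gate (96.9 CPM, others 20.7 to 35.1), whose part in the value was not tested. *Ereg* in untreated tdTomato+ stroma was at 2.32 CPM in mouse 3 and at 0 to 0.194 CPM in the others. These are 3 of 38 groups tested by Dixon's ratio, which flags about 1 in 20 by chance. The E+P effect on *Erbb2* differed between the luminal gates, with a GFP+ minus tdTomato+ log2 value of -0.91 (edgeR's adjusted p = 0.00328).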

How the results depend on the processing

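Of 102 differences tested for the members, 43 were called, of which 32 kept their call under all alternatives run and 11 lost it under at least 1, and 15 uncalled ones gained a call. No called difference changed sign, but some uncalled ones did, among them *Areg* after E+P in GFP+ luminal cells. Counts of called members moved by over 1.5 times as follows. With each mouse left out, GFP+ against tdTomato+ stroma gave 3 to 7 (6 with all mice), the luminal gates 5 to 7 (8), E+P in tdTomato+ luminal cells 1 to 4 (3) and the luminal difference of E+P effects 0 to 1 (1). Over all genes these fits called 6004 to 7166 (7466 with all mice), 3933 to 5336 (5745), 1140 to 2144 (2327) and 33 to 314 (376). The lowest member count was without E+P mouse 1 in stroma and without E+P mouse 2 or 3 between the luminal gates. Without the low-count filter E+P gave 2 in GFP+ stroma, 4 in tdTomato+ stroma and 3 for the stromal difference of effects, each 0 with the filter. Calls over all genes rose too, from 41 to 459, from 22 to 840 and from 8 to 506. With limma-voom the GFP+ stromal count was 1, beside 100 over all genes. DESeq2 gave 3 in tdTomato+ stroma, 5 in tdTomato+ luminal cells and 1 for the stromal difference, beside 384, 3558 and 111 over all genes. At an adjusted p under 0.05 the counts were 1 in tdTomato+ stroma and 5 in tdTomato+ luminal cells, beside 143 and 4444 over all genes. Scaling by library size left 0 for the luminal difference, beside 368 over all genes. By that scaling the mean level in GFP+ luminal cells was 115 CPM for *Erbb2* and 440 CPM for *Erbb3*. The cause of these changes was not tested.

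With the mouse as a block, the replicate block lost *Nrg1* between the luminal gates (adjusted p = 0.0137) and between GFP+ luminal and GFP+ stromal cells (0.0205) and no other member call. The replicate number, which marks different mice in the treatment groups (correlation -0.015), lost *Tgfa* after E+P in tdTomato+ luminal cells (0.0209). The removals of the libraries richest in luminal or hormone-sensing markers were chosen after seeing the data, and left 4 of 6 calls between the stromal and 6 of 8 between the luminal gates.

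Over all genes, E+P calls in GFP+ stroma were 41 against 459 without the filter, 192 with DESeq2 and 100 with limma-voom, and in tdTomato+ stroma 22 against 840, 384 and 8. In GFP+ luminal cells they were 985 against 2035 with DESeq2 and 169 without E+P mouse 2, and in tdTomato+ luminal cells 2327 against 3558 and 1140. Fits with only the groups compared called 187 genes in GFP+ stroma, 0 in tdTomato+ stroma and 560 in GFP+ luminal cells. *Ereg* in luminal cells and *Erbb4* in stroma were limited by depth.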
